A study of Mus musculus with 30 samples.

Results

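Gemcitabine added to KCL-HO-1i was compared with KCL-HO-1i on its own in mammary tumors of MMTV-PyMT mice by bulk RNAseq. The members were the libraries that the labels place in these groups, 5 KCL-HO-1i/gemcitabine and 5 KCL-HO-1i tumors, 10 of the 30 libraries and 2 of the 6 groups of the series. All mice were FVB/N-Tg(MMTV-PyVT)634Mul/J animals with the genotype given as WT, and their ages were not used here. Both groups received KCL-HO-1i at 25 µmol/kg daily, and the combination also received gemcitabine at 64 mg/kg every 7 days. The labels give 72 hours of treatment, but the study's text gives a shorter course and less gemcitabine, and the files do not settle which applied. For comparison the gemcitabine, vehicle and KCL-HO-1i/5-FU groups, each of 5 tumors, were used. The labels give KCL-HO-1i/5-FU the same KCL-HO-1i dose with 5-fluorouracil (5-FU) at 40 mg/kg every 4 days. In this strain the MMTV promoter drives the polyoma middle T oncogene mainly in mammary epithelium, and each tumor holds the other cells of the gland and its surroundings as well.

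Gemcitabine is a nucleoside analog. It enters cells through nucleoside transporters such as the one encoded by Slc29a1, is phosphorylated first by deoxycytidine kinase (Dck) and is inactivated by cytidine deaminase (Cda). Its diphosphate blocks ribonucleotide reductase (Rrm1 and Rrm2), its triphosphate is built into DNA and stops replication forks, and stalled forks engage the Chek1 checkpoint and p53. KCL-HO-1i inhibits heme oxygenase-1, encoded by Hmox1, which opens the heme ring to biliverdin, iron and carbon monoxide. In these tumors heme oxygenase-1 is known from perivascular macrophages marked by Lyve1 and Mrc1. Heme itself is made most heavily by red blood cell precursors, where Alas2 catalyzes the first step, and young red blood cells still carry the RNA of the globin genes.

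Adding gemcitabine left no gene past the adjusted threshold. Of 13663 genes tested with edgeR's quasi-likelihood test, 0 had a Benjamini-Hochberg adjusted p under 0.05, and the smallest adjusted p was 0.99994. DESeq2 and limma-voom also called 0. At an unadjusted p under 0.05 there were 364 genes, 2.66% of those tested, of which 164 (1.2%) were higher and 200 (1.46%) lower in KCL-HO-1i/gemcitabine, where a uniform spread of p-values would give 683. The median log2 fold change of all tested genes was 0.02, and 54.1% of them lay above 0. The median standard error of a log2 fold change was 0.21. None of the differences below passed the adjusted threshold, and every gene named below for this comparison had an adjusted edgeR p of 0.99994 or more. Counts of genes at an unadjusted p under 0.05 serve to order genes and lists. Levels are CPM, a gene's counts as a share of its library, scaled to the effective library size, and fold changes are given as KCL-HO-1i/gemcitabine over KCL-HO-1i.

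**Figure D1:**
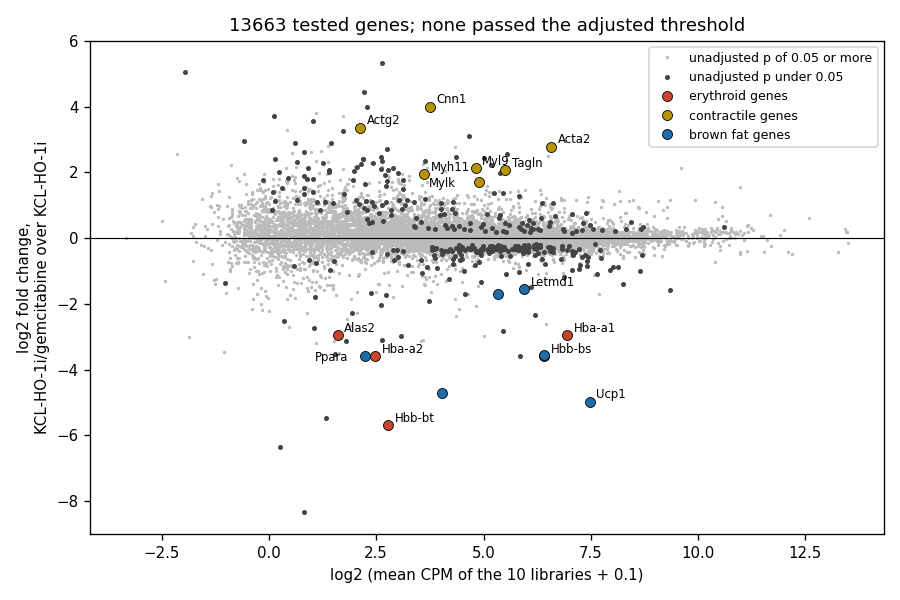
Log2 fold change of each tested gene (y axis, KCL-HO-1i/gemcitabine over KCL-HO-1i) against log2 of its mean CPM plus 0.1 over the 10 libraries (x axis). Each point is a gene, dark where the unadjusted p was under 0.05, and colored points mark the erythroid, contractile and brown fat genes, all chosen after their values were seen. Hbb-bt is the lowest erythroid gene at -5.70.

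The 10 libraries held from 10406989 to 13622395 counts. The groups did not differ detectably in total counts (12222800 ± 1305390, SD, n = 5, with gemcitabine and 12499400 ± 1083340, n = 5, without, by a two-sided exact permutation test p = 0.738, smallest possible 0.00794) or in the share of counts from the 13 mitochondrial genes (2.94% ± 1.05 and 3.83% ± 3.36, exact p = 0.794). The summed level of the luminal markers Krt8, Krt18, Krt19, Epcam and Cdh1 ran from 1990 to 4690 CPM in the combination and from 3050 to 4490 CPM in KCL-HO-1i, so the epithelial markers of a mammary tumor were present in every library. Markers of tissue around the gland varied far more. The summed CPM of the muscle genes Acta1, Ckm and Myh4 ran from 8.47 to 2620 in KCL-HO-1i and from 0.297 to 7320 in the combination, and that of the fat genes Adipoq, Plin1 and Cidec from 2.06 to 1370 and from 0.33 to 1460. Libraries that stood apart were KCL-HO-1i replicate 4 (mitochondrial share 9.69%, brown fat and muscle genes high), KCL-HO-1i/gemcitabine replicate 2 (muscle and fat genes high) and KCL-HO-1i/gemcitabine replicate 3 (contractile genes high). Without these 3 libraries, a choice made after their values were seen, 230 genes had an unadjusted p under 0.05, 65 higher and 165 lower, and 0 passed the adjusted threshold.

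Of the genes whose libraries did not overlap between the groups, the 4 with the largest fold change in either direction were red blood cell genes. Both beta globin genes, the alpha globin gene Hba-a1 and Alas2, the erythroid form of the enzyme that starts heme synthesis, were lower in all 5 combination tumors than in any KCL-HO-1i tumor. Non-overlap in this direction was found for 54 of the 13663 tested genes, 0.395%. In the exact permutation test of 5 against 5 libraries, full separation in either direction has p = 0.00794, shared equally by the directions. The number of lower genes is thus about what chance alone gives, and non-overlap serves only to order genes. These 5 red blood cell genes (Hba-a2 is the fifth) were put together as a group after their values were seen. The stretches just upstream of their start sites are shown because they carry the letters GATAA, the core bound by GATA factors, the family that drives red blood cell genes. Each line gives the 250 bases before the RefSeq start site on the gene's strand (GRCm38.p6), 5′ to 3′, with GATAA or its reverse complement TTATC in capitals. Hba-a1 lies at chr11:32283422-32283671 on the plus strand, Hbb-bs at chr7:103827929-103828178 and Hbb-bt at chr7:103813924-103814173 on the minus strand, and Alas2 at chrX:150547167-150547416 on the plus strand.
Hba-a1: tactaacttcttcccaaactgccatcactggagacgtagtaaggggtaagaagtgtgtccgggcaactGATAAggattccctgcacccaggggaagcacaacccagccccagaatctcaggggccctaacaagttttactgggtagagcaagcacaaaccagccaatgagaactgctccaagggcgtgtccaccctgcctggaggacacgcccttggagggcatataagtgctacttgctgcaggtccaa
Hbb-bs: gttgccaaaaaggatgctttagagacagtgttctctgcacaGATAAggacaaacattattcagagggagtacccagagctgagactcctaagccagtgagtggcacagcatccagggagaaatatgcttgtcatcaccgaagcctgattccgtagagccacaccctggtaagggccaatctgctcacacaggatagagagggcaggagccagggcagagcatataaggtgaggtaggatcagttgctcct
Hbb-bt: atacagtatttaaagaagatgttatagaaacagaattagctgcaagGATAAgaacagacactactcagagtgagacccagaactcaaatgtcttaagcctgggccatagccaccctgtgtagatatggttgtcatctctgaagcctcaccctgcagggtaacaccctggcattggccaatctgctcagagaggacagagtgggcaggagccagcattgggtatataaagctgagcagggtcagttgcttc
Alas2: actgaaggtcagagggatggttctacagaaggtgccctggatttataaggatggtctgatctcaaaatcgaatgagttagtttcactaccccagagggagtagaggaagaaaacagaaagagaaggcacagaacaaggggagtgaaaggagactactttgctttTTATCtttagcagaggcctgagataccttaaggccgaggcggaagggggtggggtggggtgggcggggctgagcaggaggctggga
Each of the 4 windows held 1 match. With both strands searched, 22.6% of 32851 RefSeq windows of the same length held at least 1. The letters are therefore common, and a match is no sign of binding. The 300-base windows of Hba-a1 and Hba-a2 shared an unbroken run of 297 bases. Reads from such near-identical copies can be assigned to either gene, and alpha globin was therefore summed, as was beta globin.

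In the KCL-HO-1i tumors the summed alpha globin level was 114, 176, 366, 381 and 107 CPM in replicates 1 to 5. In the KCL-HO-1i/gemcitabine tumors it was 10.3, 62.4, 23.5, 2.49 and 46.4 CPM. The highest combination tumor lay below the lowest KCL-HO-1i tumor, and the means differed by 7.89-fold (229 ± 135 CPM against 29.0 ± 25.0 CPM, SD, n = 5 each). Beta globin stood at 80.6, 130, 267, 281 and 96.5 CPM without gemcitabine. With gemcitabine it stood at 2.74, 26.1, 13.2, 0.904 and 24.0 CPM, a 12.8-fold lower mean, again without overlap. Alas2 was measured at 2.80, 3.06, 8.29, 8.45 and 3.46 CPM in KCL-HO-1i and at 0.816, 0.805, 0.248, 0.452 and 0.984 CPM in the combination, where these levels rest on 3 to 11 reads a library. By gene, the log2 fold change was -5.70 ± 1.47 (SE) for Hbb-bt and -3.60 ± 1.20 for Hbb-bs. It was -2.96 ± 1.10 for Hba-a1 and -2.96 ± 0.80 for Alas2. The second alpha globin gene, Hba-a2, had reads in 3 of the 10 libraries and a log2 fold change of -3.59 ± 2.27. In bulk samples fewer red blood cells and less of this RNA per cell cannot be told apart.

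Some mice share a number in their code, whose meaning the labels do not give. As the groups did not overlap, mice sharing a number could only differ in the same direction. Among mice coded 70, alpha globin was 176 and 366 CPM in KCL-HO-1i replicates 2 and 3 and 62.4 CPM in combination replicate 2. Among mice coded 71 it was 114 CPM in KCL-HO-1i replicate 1 and 23.5 CPM in combination replicate 3. The other combination mice, coded 72, 73 and 84, have no KCL-HO-1i mouse of the same number. Without the 3 libraries that stood apart, the log2 fold changes were -6.56 for Hbb-bt, -3.90 for Hbb-bs, -3.26 for Hba-a1 and -2.55 for Alas2. Their direction could not change, as these genes did not overlap between the groups.

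Other red blood cell genes were lower in level and overlapped between the groups. Of 7 further genes of this cell type, a list also put together after values were seen, only Trim10 passed the filter on low counts (-0.61 ± 0.79), and its unadjusted p was not under 0.05. The summed level of the 7 ran from 1.32 to 2.30 CPM in KCL-HO-1i and from 0.744 to 2.15 CPM in the combination. Alas1, the form of the heme-synthesis enzyme used outside red blood cells, ran from 16.8 to 32.5 CPM without gemcitabine and from 9.17 to 23.4 CPM with it (log2 fold change -0.37 ± 0.24).

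The drug without KCL-HO-1i gave a split picture for the same genes. Alpha globin was 3.18, 9.52, 4.12 and 1.55 CPM in gemcitabine replicates 1 to 4 but 422 CPM in replicate 5, against 47.8 to 267 CPM in the 5 vehicle tumors. Replicates 1 to 4 come from mice coded 76 and replicate 5 from a mouse coded 86, and 3 of the 5-FU mice also coded 76 had 59.2, 152 and 117 CPM. The vehicle mean was 2.03-fold above the gemcitabine mean with all 5 libraries. Without gemcitabine replicate 5, a choice made after its value was seen, it was 38.9-fold above. Replicate 5 lay above every vehicle tumor, and no other library was left out for this ratio. Of the 5 genes 0 had an interaction, the difference between the effects of gemcitabine with and without KCL-HO-1i, at an unadjusted p under 0.05 (interaction of Hbb-bt -3.65 ± 1.79 and of Alas2 -1.61 ± 1.06). In KCL-HO-1i/5-FU tumors alpha globin stood at 48.1, 29.1, 326, 78.4 and 22.7 CPM, overlapping both groups.

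**Figure D2:**
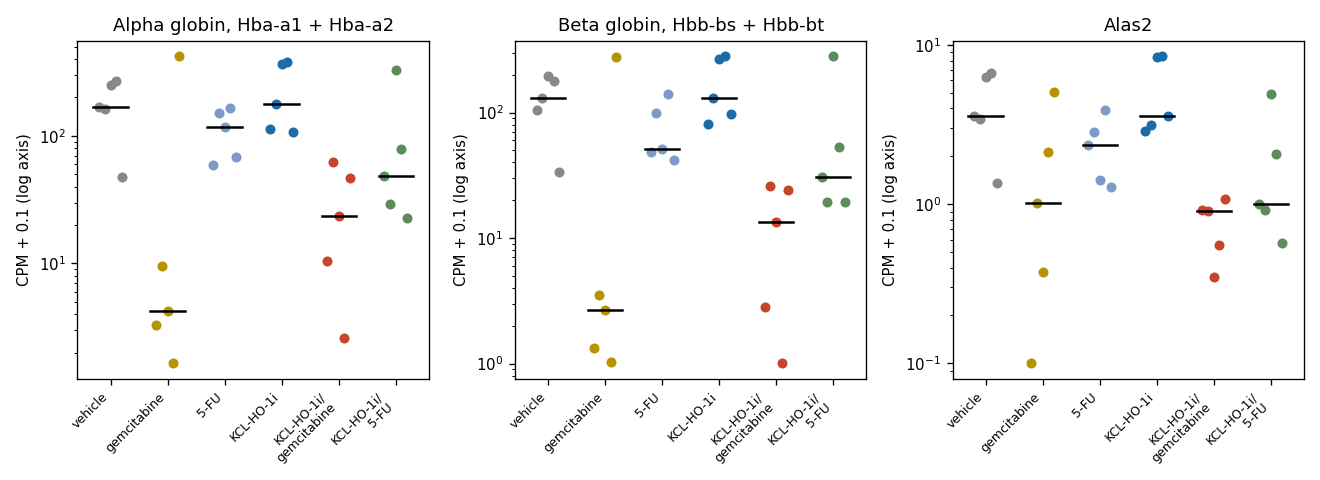
Summed CPM of alpha globin and of beta globin, and CPM of Alas2, each plus 0.1 on a log axis, in every library of the 6 groups (points; black bars are medians, 5 libraries a group). The 5 KCL-HO-1i/gemcitabine points lie below the 5 KCL-HO-1i points in each panel, and of the gemcitabine points 4 lie low and 1 high for both globins.

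DNA damage genes were next. The list of p53 targets leaned higher with gemcitabine: 23 of its 27 tested members lay above 0, their median log2 fold change was 0.26 beside 0.02 for all genes, and 2 had an unadjusted p under 0.05, where 1.2% of all genes did so on the higher side. One was Cdkn1a, which encodes the cell cycle inhibitor p21 and is a textbook p53 target. The stretch of 60 bases upstream of 1 of its RefSeq start sites is shown because it holds, in capitals, a match to ACATGT, 4 bases of any kind and ACATGT again, the core of a p53 response element (chr17:29090908-29090967, plus strand, GRCm38.p6).
Cdkn1a: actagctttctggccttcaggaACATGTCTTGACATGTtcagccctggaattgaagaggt
The same letters were found on either strand in 4 of the 32851 windows of 250 upstream bases, 0.0122%. These data did not measure binding of p53.

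Cdkn1a was measured at 57.3, 41.7, 38.4, 65.5 and 61.8 CPM in KCL-HO-1i replicates 1 to 5 and at 52.8, 54.1, 255, 121 and 73.38 CPM with gemcitabine added. Of the 5 combination tumors, 3 lay above every KCL-HO-1i tumor and 2 lay within their range. The log2 fold change was 1.07 ± 0.44 (SE), and without combination replicate 3 it was 0.50. In KCL-HO-1i/5-FU tumors, which differ in the chemotherapy, Cdkn1a stood at 256, 236, 210, 219 and 178 CPM. The log2 difference of the gemcitabine combination from that group was -0.98 ± 0.44 (adjusted p = 0.326 in edgeR). Without KCL-HO-1i, gemcitabine left Cdkn1a between 63.6 and 149 CPM against 69.9 to 148 CPM in vehicle, and the interaction was 1.26 ± 0.62.

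Of the other p53 targets, Ccng1, which encodes cyclin G1, was the other member at an unadjusted p under 0.05. Its level was 144, 119, 154, 203 and 159 CPM without gemcitabine and 134, 312, 227, 175 and 170 CPM with it (log2 fold change 0.38 ± 0.18), and 0.17 without combination replicate 2. Fas, a death receptor, had 0.58 ± 0.32, Bbc3, which encodes the cell death protein PUMA, 0.47 ± 0.25, and Polk, a polymerase that copies damaged DNA, 0.29 ± 0.16. For Mdm2, which restrains p53 and is itself a p53 target, it was 0.04 ± 0.11. The mean log2 CPM of the list was 4.45, 4.43, 4.58, 4.81 and 4.58 in KCL-HO-1i and 4.49, 4.84, 5.16, 4.84 and 4.67 in the combination, so the groups overlapped. Without the 3 libraries that stood apart, 19 of 27 members lay above 0 and the median was 0.10.

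The replication and repair machinery leaned the other way by small amounts. Among 27 DNA replication and S phase genes, 21 lay below 0 with a median log2 fold change of -0.09, and among 20 mitosis genes 19 lay below 0 with a median of -0.15. No member of either list had an unadjusted p under 0.05. Mki67, the proliferation marker, was 180, 175, 97.4, 230 and 124 CPM in KCL-HO-1i and 177, 197, 99.2, 84.5 and 113 CPM in the combination (-0.27 ± 0.41). Top2a, a topoisomerase of dividing cells, gave -0.27 ± 0.37. With the mouse code as a factor the S phase and mitosis medians were on the other side of 0, at 0.11 and 0.12. The checkpoint and repair list had 20 of 25 members below 0 and a median of -0.18, also with no member at an unadjusted p under 0.05. With the mouse code as a factor its median was -0.013, beside 0.018 for all tested genes. Chek1, the kinase that answers stalled forks, was 11.8, 8.42, 6.50, 9.05 and 9.40 CPM without gemcitabine and 7.04, 5.93, 8.26, 4.30 and 5.55 CPM with it (-0.54 ± 0.29), and every combination tumor lay below 4 of the 5 KCL-HO-1i tumors. Palb2, a partner of the BRCA proteins in repair, gave -0.58 ± 0.31.

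With the drug alone these lists lay on the other side of 0. In gemcitabine against vehicle, a comparison that shares no library with the one above and had 523 genes (3.83%) at an unadjusted p under 0.05 and 0 past the adjusted threshold in edgeR (smallest adjusted p 0.94117), all 27 S phase genes and all 20 mitosis genes lay above 0, with medians of 0.39 and 0.38, where 55.5% of all genes lay above 0. Of the S phase genes 2 were higher at an unadjusted p under 0.05, beside 2.05% of all genes higher and 1.78% lower. In mean log2 CPM only gemcitabine replicates 1 and 3 lay above every vehicle tumor (S phase 5.656 and 5.991, mitosis 6.535 and 6.789). The other gemcitabine replicates lay within or below the vehicle range, 4.69 to 5.253 for S phase and 5.338 to 5.922 for mitosis. The interaction, which tests whether gemcitabine acts alike with and without KCL-HO-1i, called 0 genes at the adjusted threshold in edgeR, DESeq2 and limma-voom and had 183 genes (1.34%) at an unadjusted p under 0.05. Its log2 values lay below 0 for all 27 S phase genes, all 20 mitosis genes and all 25 checkpoint and repair genes, with medians of -0.43, -0.54 and -0.32 beside -0.02 for all genes. Of these members only Ccne1, which encodes cyclin E1 and was picked out here for its p, had an unadjusted p under 0.05 (-1.26). For Mki67 the interaction was -0.64 ± 0.58 and for Chek1 -0.75 ± 0.41, and the smallest adjusted p of the interaction over all genes was 0.99967. Gemcitabine replicate 3 was the highest of its group for Mki67, at 477 CPM against 108 to 264 CPM in the other 4 libraries. The interaction values use the same gemcitabine libraries.

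**Figure D3:**
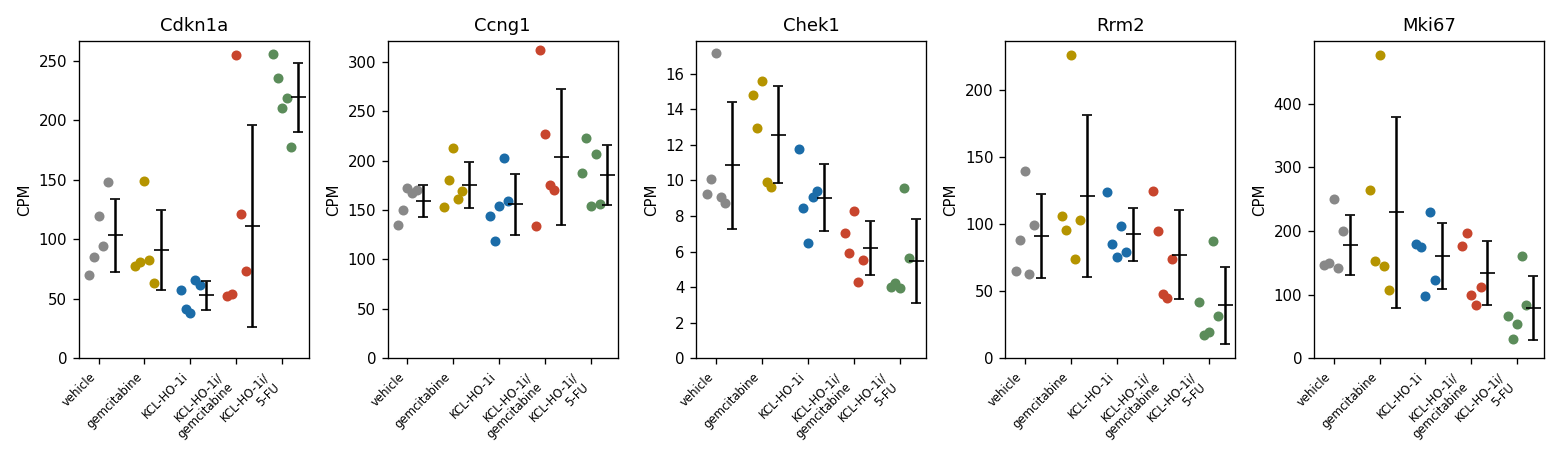
CPM of Cdkn1a, Ccng1, Chek1, Rrm2 and Mki67 (linear axes from 0) in each library of vehicle, gemcitabine, KCL-HO-1i, KCL-HO-1i/gemcitabine and KCL-HO-1i/5-FU; points are libraries, and the black dash and bar beside them are the mean and SD (n = 5). For Cdkn1a the highest combination library stands at 255 CPM and the next at 121 CPM, while all 5 KCL-HO-1i/5-FU libraries lie from 178 to 256 CPM.

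Genes that handle gemcitabine differed little. Slc29a1, the main uptake transporter, was 257, 299, 230, 171 and 206 CPM without and 273, 200, 375, 204 and 288 CPM with the drug (0.20 ± 0.26). For Dck the log2 fold change was -0.12 ± 0.15 and for Cda 0.02 ± 0.53. The drug's target genes Rrm1 and Rrm2 gave -0.14 ± 0.24 and -0.26 ± 0.43, with Rrm2 at 124, 85.0, 75.2, 98.4 and 79.5 CPM in KCL-HO-1i and 124, 94.6, 48, 45 and 74.09 CPM in the combination. In the lists for uptake (4 tested members), activation and inactivation (11) and nucleotide synthesis targets (13), no member had an unadjusted p under 0.05, and the medians were -0.10, 0.01 and 0.00. The efflux list held 1 such member among 7, where 1.2% of all genes had such a p on the higher side. It was Abcc3, which encodes an export pump of the multidrug resistance family. Its levels did not overlap between the groups, with 10.3, 11.9, 16.7, 8.35 and 8.66 CPM in KCL-HO-1i against 17.5, 16.8, 25.5, 22.8 and 20.4 CPM in the combination (0.88 ± 0.41). With the drug alone Abcc3 gave 0.03 ± 0.41, and the interaction was 0.85 ± 0.58. Abcc10, another pump of this family, gave -0.29 ± 0.15.

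Non-overlap between the 5 and 5 libraries was rarer on the higher side, with 16 genes (0.117%), fewer than chance alone gives. In order of the unadjusted p, and with a mean of at least 1 CPM, the first 12 were Gfap, Il11ra1, Traf5, Gpsm1, Hpcal1, Apbb1, Cops8, Abcc3, Wdsub1, AI413582, Drap1 and Zfp74. Their log2 fold changes ran from 0.20 to 2.91. Il11ra1, the interleukin-11 receptor, was 52.6, 50.8, 59.4, 53.2 and 61.2 CPM without gemcitabine and 62.6, 87.3, 66.5, 75.5 and 71.8 CPM with it (0.39 ± 0.13). Traf5, an adaptor of tumor necrosis factor receptors, was 2.15, 2.39, 3.29, 1.99 and 2.64 CPM without and 3.71, 5.63, 5.54, 3.39 and 3.40 CPM with the drug (0.79 ± 0.29). Cops8, a subunit of the COP9 signalosome, showed a small step, from 37.8 to 43.2 CPM in KCL-HO-1i and from 44.2 to 49.5 CPM in the combination (0.20 ± 0.09). The large value of Gfap, an intermediate filament of glial cells, rested on combination replicate 3, with 18.3 CPM against 1.01 to 1.51 CPM in the other 4 libraries, and it was 0.96 on the log2 scale without that library instead of 2.91. Gpsm1, Hpcal1 and Apbb1 were also highest in combination replicate 3, at 17.4, 37.4 and 10.7 CPM.

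On the lower side most differences were small. Of the 54 non-overlapping genes, about as many as chance gives, 44 had a log2 fold change between 0 and -0.6, and the median was -0.34. Beyond -0.6, besides the 4 red blood cell genes, were Cplane2 (-1.37), Ddo (-0.99), Phf21b (-0.90), Ccdc171 (-0.77), Ttll4 and Prrg4 (-0.62), listed here for their size. Wapl, which releases cohesin from chromosomes, was 161, 144, 148, 144 and 155 CPM in KCL-HO-1i and 111, 118, 123, 103 and 122 CPM in the combination (-0.38 ± 0.11). Mier3, a chromatin cofactor, gave -0.40 ± 0.12, and Chd1, a chromatin remodeler, -0.36 ± 0.13. Exoc8, a subunit of the exocyst that tethers vesicles, was 43.8, 38.7, 39.9, 43.2 and 40.5 CPM without and 35.3, 36.3, 32.5, 30.1 and 29.8 CPM with gemcitabine (-0.33 ± 0.10). Fam160b1 (-0.42 ± 0.13), Pdik1l (-0.31 ± 0.11) and Naa30, an amino-terminal acetyltransferase (-0.32 ± 0.12), were of the same size. Ttll4, a tubulin-modifying ligase, gave -0.64 ± 0.20, with combination replicate 1 lowest at 12.4 CPM.

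Set beside the drug alone, 17 genes had an unadjusted p under 0.05 in both gemcitabine comparisons, 4.67% of the 364 with KCL-HO-1i and 3.25% of the 523 without. Over all genes the shares at such a p were 3.83% without KCL-HO-1i and 2.66% with it. The overlap was thus little above the share over all genes. Of these 17, 13 were lower in both, 3 were higher in both and 1 had opposite signs. Fam160b1 and Exoc8 were among those lower in both. In gemcitabine against vehicle they gave -0.32 and -0.23. Across all 13663 genes, which are not independent replicates, the log2 fold changes of the comparisons had a Pearson correlation of 0.18 and a Spearman correlation of 0.24.

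T cell genes were low in these tumors. Cd8a, which marks cytotoxic T cells, was 0.287, 0.745, 0.896, 0 and 0.577 CPM in KCL-HO-1i and 0.816, 0.503, 0.496, 3.17 and 0.895 CPM in the combination (1.20 ± 0.66), a level of 0 to 12 reads in the first group and 5 to 42 in the second. The highest library, combination replicate 4, stood apart from the other 4, which lay within the KCL-HO-1i range. Cd8b1 and Ifng, the second chain of CD8 and interferon gamma, did not pass the filter on low counts: Cd8b1 had at most 9 reads in a library, and Ifng had 1 read in each of 2 KCL-HO-1i libraries and 0 in the combination. Gzmb, a cytotoxic granule protease, gave 0.10 ± 0.54, Gzma 0.77 ± 1.03 and Cd3d, part of the T cell receptor complex, 0.51 ± 0.69. Of 23 T and NK cell genes 12 were tested, 11 of them above 0 with a median of 0.17, and none of the 12 had an unadjusted p under 0.05. Outside that list, Tnfrsf9, a costimulatory receptor of T cells, did not overlap between the groups (1.15 ± 0.71) and was picked for that. Its mean over the 10 libraries was only 0.776 CPM, and its unadjusted p in edgeR was 0.118.

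Macrophage genes leaned higher. All 15 tested members of the macrophage list lay above 0, with a median log2 fold change of 0.37, but none had an unadjusted p under 0.05. Their mean log2 CPM was 5.17, 5.56, 6.20, 5.39 and 5.01 without gemcitabine and 5.95, 6.15, 5.51, 5.76 and 6.26 with it, so the groups overlapped. Trem2, a lipid receptor of tumor macrophages, was 13.2, 18.1, 25.8, 10.1 and 11.8 CPM in KCL-HO-1i and 23.6, 25.0, 20.9, 27.1 and 31.5 CPM in the combination (0.70 ± 0.40). Aif1, which encodes the macrophage protein IBA1, gave 0.64 ± 0.38. The list of LYVE-1 perivascular macrophage genes, the cells known for heme oxygenase-1 in these tumors, was split evenly, 7 members above and 7 below 0 with a median of -0.00. Lyve1 itself ran from 0.247 to 34.5 CPM in KCL-HO-1i and from 0.0754 to 18.1 CPM in the combination (-1.12 ± 1.18), and Mrc1, which encodes CD206, from 3.05 to 77.4 and from 7.27 to 111 CPM (0.06 ± 0.84). Cbr2, a carbonyl reductase in the same list, gave 0.88 ± 0.48.

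Antigen presentation and checkpoint genes gave single members at an unadjusted p under 0.05, where 1.2% of all genes did so on the higher side. H2-DMa, which loads peptides on MHC class II, was 5.88, 11.5, 10.2, 7.16 and 7.34 CPM without and 13.2, 15.0, 7.35, 13.1 and 16.0 CPM with gemcitabine (0.62 ± 0.30), 4 of 5 combination tumors above every KCL-HO-1i tumor. Irf8, a factor of dendritic cells and monocytes, gave 0.74 ± 0.37. Among 13 tested dendritic cell and MHC class II genes 11 lay above 0, with a median of 0.33. Vsir, which encodes the checkpoint protein VISTA, was 46.3, 59.1, 63.6, 54.9 and 48.3 CPM without and 58.1, 69.19, 120, 78.8 and 68.9 CPM with the drug (0.54 ± 0.25), 1 of 6 tested checkpoint genes at an unadjusted p under 0.05. Without combination replicate 3 its log2 fold change was 0.33.

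Among signaling molecules, Tnf gave 1.00 ± 0.52 with 0.789 to 2.24 CPM in KCL-HO-1i and 1.26 to 3.62 CPM in the combination, and the chemokine gene Ccl3 gave 1.40 ± 0.71 at levels of 0 to 0.971 and 0.816 to 1.11 CPM. Ccl21a, a chemokine that draws T and dendritic cells, was 3.41 CPM in combination replicate 1, 12.8 CPM in replicate 5 and 0 in replicates 2, 3 and 4, against 0 to 1.32 CPM in KCL-HO-1i (2.62 ± 1.58). Cxcl12 (0.06 ± 0.66) and Cxcl14 (0.01 ± 0.57) differed little in their means. The 24 tested interferon-stimulated genes had a median of -0.20, 18 of them below 0, and Rsad2 gave -1.45 ± 0.80 with KCL-HO-1i replicate 2 at 39.3 CPM and every other library between 2.49 and 8.75 CPM. Without KCL-HO-1i replicate 2 the median of that list was 0.54.

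Heme handling genes leaned slightly higher. Hmox1 was 86.4, 106, 299, 225 and 47.8 CPM in KCL-HO-1i and 149, 210, 418, 115 and 120 CPM in the combination (0.40 ± 0.62), and Hmox2, the constitutive form, gave 0.13 ± 0.11. In the list of 17 heme breakdown and iron genes 12 lay above 0, the median was 0.13 and no member had an unadjusted p under 0.05. With the mouse code as a factor the median was 0.0092, beside 0.018 for all tested genes. Fth1, which encodes the heavy chain of the iron store ferritin, was 1880, 2631, 3430, 2393 and 2099 CPM without gemcitabine and 2791, 4480, 6527, 2521 and 3748 CPM with it (0.69 ± 0.36). Blvrb, a biliverdin reductase, gave 0.41 ± 0.21. Lists for the NRF2 antioxidant response (median 0.07), ER stress (-0.10), hypoxia (0.21), apoptosis (0.03) and immediate early genes (-0.01) held no member at an unadjusted p under 0.05. Nr4a1, an immediate early gene, gave -0.48 ± 0.25.

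**Figure D4:**
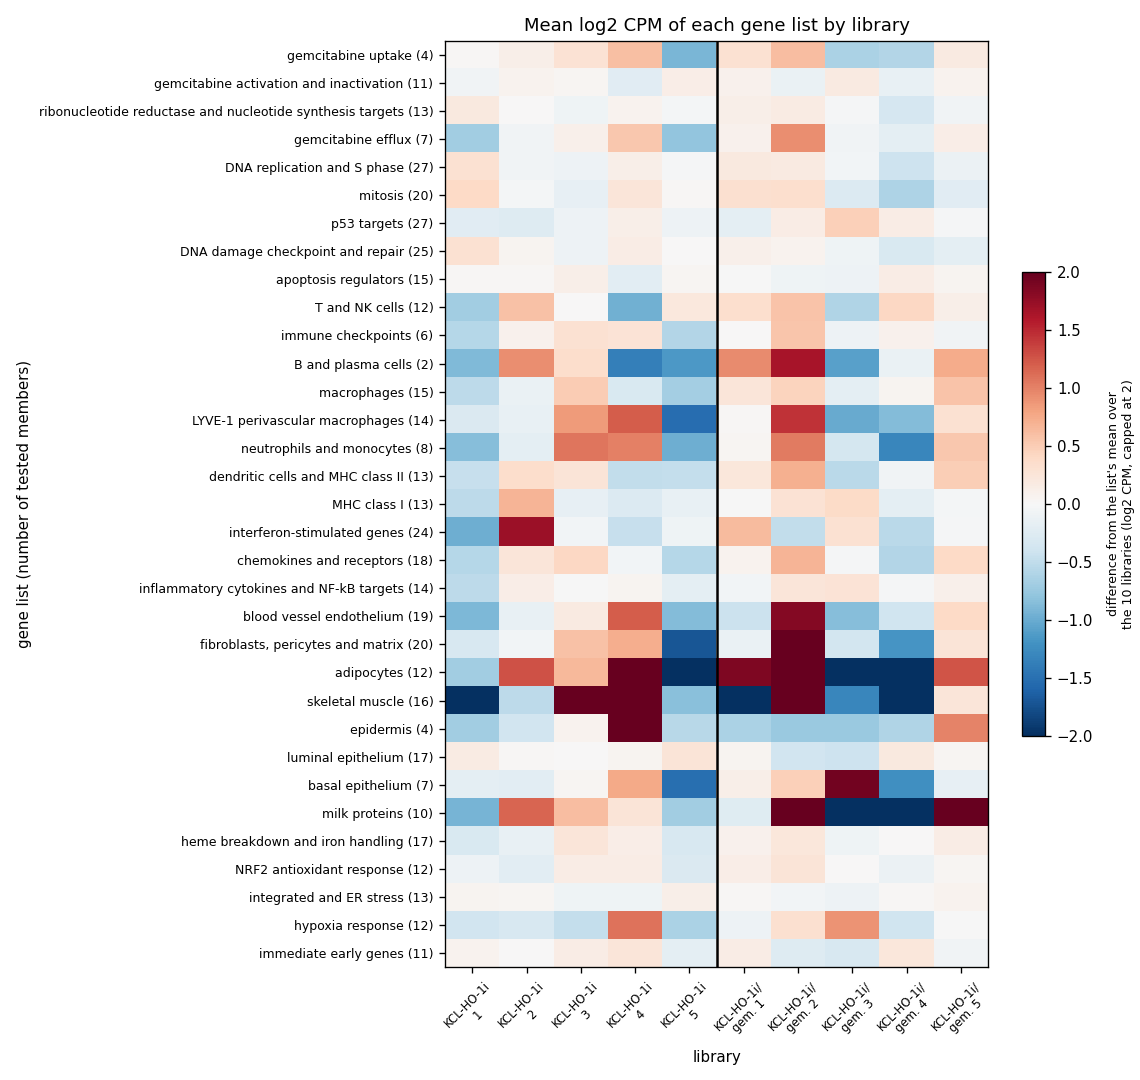
Mean log2 CPM of each of the 33 gene lists (rows, number of tested members in brackets) in each of the 10 libraries (columns), as the difference from the list's mean over the 10 libraries, with the color capped at 2 on the log2 scale. Fat, muscle and milk protein lists vary most between single tumors, and the p53 list runs from 4.43 to 4.81 in KCL-HO-1i and from 4.49 to 5.16 in KCL-HO-1i/gemcitabine.

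Several of the largest fold changes came from single tumors. Acta2, which encodes smooth muscle actin, was 19.2, 31.5, 15.0, 44.5 and 10.9 CPM in KCL-HO-1i and 29.0, 107, 658, 8.37 and 26.1 CPM in the combination (2.78 ± 0.80). Replicate 3 alone reached 658 CPM, and without it the value was 0.80. Cnn1 (4.00 ± 1.26), Tagln (2.06 ± 0.61), Myl9 (2.12 ± 0.69) and Mylk (1.70 ± 0.59), all of the contractile apparatus, followed the same library, with Cnn1 at 112 CPM in replicate 3, 10.4 CPM in replicate 2 and at most 4.97 CPM elsewhere. All 7 contractile genes, a list put together after the values were seen, had an unadjusted p under 0.05 with the 10 libraries, and 0 of 7 did so without the 3 that stood apart. Acta2 and Tagln were the 2 members of the fibroblast list at an unadjusted p under 0.05, and Cnn1 and Mylk those of the basal epithelium list.

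On the lower side, genes of brown fat were high in KCL-HO-1i replicate 4. Ucp1, the uncoupling protein of brown fat, was 1681 CPM there, against 0 to 34.6 CPM in the other 4 KCL-HO-1i tumors and 0 to 53.2 CPM in the combination (-4.98 ± 1.87). Letmd1 gave -1.56 ± 0.44 with 321 CPM in that library and 32.3 to 39.1 CPM in the other 4, and Ppara, a regulator of fat burning, -3.59 ± 0.97. Without KCL-HO-1i replicate 4 the values were 0.18, -0.16 and -0.07. Csn1s2b, a milk casein gene, was 0.287 to 0.969 CPM in KCL-HO-1i and 0.742, 5.83, 0.248, 1.28 and 5.10 CPM in the combination (1.88 ± 0.75), high in 2 tumors. Krt1, a keratin of the epidermis, was 23.8 CPM in the same KCL-HO-1i library and at most 1.07 CPM in the other 9 libraries, and all 4 tested epidermis genes lay below 0 with a median of -1.42. For the epithelium that carries the transgene, 14 of 17 luminal genes lay below 0 with a median of -0.10, Cdh1 (E-cadherin) gave -0.26 ± 0.16 and the receptor gene Erbb3 -0.38 ± 0.22. Without the 3 libraries that stood apart, 8 of the 17 luminal genes lay below 0 and the median was 0.04.

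The other lists of cell types and signals overlapped between the groups in their mean log2 CPM. The 19 blood vessel genes had 16 members above 0 and a median log2 fold change of 0.48, the 20 fibroblast and matrix genes 19 and 0.64, the 12 fat genes 9 and 0.65, the 16 muscle genes 16 and 1.13, the 10 milk protein genes 8 and 1.13, and the 7 basal epithelium genes 3 and -0.16. Without combination replicate 2 the medians were -0.34 for blood vessel, -0.47 for fibroblast and matrix, -1.26 for fat and -3.38 for muscle genes, and without the 3 libraries that stood apart 6 of 20 fibroblast and matrix genes lay above 0. Of 8 neutrophil and monocyte genes 5 lay above 0 with a median of 0.04, of 13 MHC class I genes 9 with 0.13, of 18 chemokine and receptor genes 13 with 0.19, and of 14 inflammatory cytokine and NF-kB target genes 11 with 0.20. Only 2 B and plasma cell genes were tested, with a median of 0.79. The efflux and immune checkpoint lists had medians of 0.36 and 0.15. Without combination replicate 2 the medians of the neutrophil and monocyte, chemokine and efflux lists were -0.51, -0.06 and -0.05. Without the 3 libraries that stood apart, 3 of 13 MHC class I genes lay above 0 and their median was -0.09. Apart from the members named here, Csn1s2b of the milk protein list and Krt1 of the epidermis list among them, no member of these lists had an unadjusted p under 0.05.

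**Figure D5:**
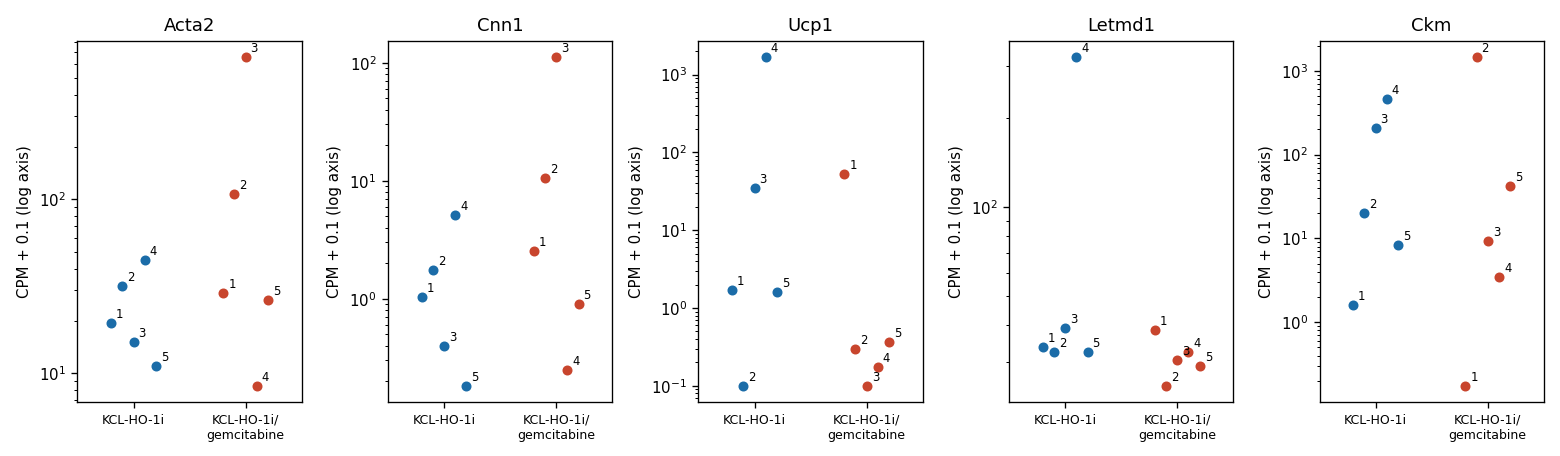
CPM plus 0.1 (log axes) of Acta2, Cnn1, Ucp1, Letmd1 and the muscle gene Ckm in the 5 KCL-HO-1i and 5 KCL-HO-1i/gemcitabine libraries, numbered by replicate. Combination replicate 3 is highest for Acta2 and Cnn1 (658 and 112 CPM), KCL-HO-1i replicate 4 for Ucp1 and Letmd1 (1681 and 321 CPM), and combination replicate 2 for Ckm.

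The choice of chemotherapy partner gave more genes at small p than the addition of gemcitabine. In KCL-HO-1i/gemcitabine against KCL-HO-1i/5-FU, edgeR called 0 genes at the adjusted threshold (smallest adjusted p 0.118), DESeq2 called 216 and limma-voom 233, and 1875 genes, 13.7%, had an unadjusted p under 0.05 in edgeR. All 27 S phase and all 20 mitosis genes lay above 0 in the gemcitabine combination, with medians of 0.52 and 0.90, and 14 and 11 of them had an unadjusted p under 0.05. Of all genes 52.1% lay above 0, and 7.79% were higher and 5.94% lower at an unadjusted p under 0.05. Rrm2 was 41.8, 17.4, 19.3, 87.2 and 31.8 CPM in KCL-HO-1i/5-FU. The log2 difference of the gemcitabine combination from that group was 0.97 ± 0.44. On the p53 list 7 of 27 members were lower at an unadjusted p under 0.05, Mdm2 among them (-0.30 ± 0.11). In this comparison the fat and muscle lists differed as well, 11 of 12 and 16 of 16 members being higher at an unadjusted p under 0.05 with medians of 4.75 and 7.31, and their part in the other differences was not tested.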

How the data were processed

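Bulk RNAseq of 30 MMTV-PyMT tumors, 5 in each of 6 groups, was used as deposited: a table of expected counts per gene for 21841 genes. Per the labels and the study's methods, the authors checked reads with FastQC 0.11.9, aligned them with STAR 2.7.9a, estimated reads per transcript with Salmon 1.9.0 (build mm10) and summed them to genes. The annotation release is not given in the sources used here. The methods speak of TPM, but the deposited values are estimated counts whose totals differ between libraries (10067698 to 13622395), and 38% of the values were not whole. Estimated counts split reads between near-identical genes, which limits single globin genes.

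Counts were rounded and tested in R 4.3.3 with edgeR 4.0.16 (TMM scaling, filterByExpr by group with a minimum count of 10, robust quasi-likelihood fit of 6 group means over the 30 libraries, Benjamini-Hochberg adjustment, threshold 0.05). Of all genes 8178 were not tested, and they held 0.0564% of the counts. Mouse codes, the numbers in the labels' mouse names, were tried as a factor. Alternatives used limma 3.58.1 and DESeq2 1.42.0. List scores are mean log2 CPM with a prior count of 2. A count of 0 allows up to 3 counts, 0.215 to 0.302 CPM in the 10 libraries, which covers counting error only. The fit was tested on simulated data. Upstream sequences came from RefSeq (GRCm38.p6). A few further marker genes are not reported here.

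The libraries, gene lists and tests were chosen with earlier results of these data known. Named genes were 18 taken whatever their values, 12 in each direction taken by smallest p from genes without overlap between the libraries (mean of at least 1 CPM), up to 4 genes with the smallest p of each of 33 lists, and up to 2 in each direction past the adjusted threshold in other comparisons, of which there were none. The labels do not say that tumors sharing a replicate number belong together, and p-values measure the spread between these tumors. No library pair within a group was closer than sampling noise (smallest chi-square per degree of freedom 32.1 over 20 pairs).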

Additional observations from a re-analysis of the deposited data

Results flagged for a closer look

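Of 218 sets of 5 libraries, 17 (7.8%) held a library whose gap to its nearest neighbor was more than 0.71 of the set's range. For independent sets chance gives this for about 1 set in 20. The genes screened included some chosen for their values, and the sets reuse the same 10 libraries. The share of 7.8% can therefore not be set against that rate. KCL-HO-1i/gemcitabine replicate 3 was lowest for H2-DMa (7.35 CPM) and highest for Gfap (18.3 CPM) and Apbb1 (10.7 CPM). KCL-HO-1i/gemcitabine replicate 2 was highest for Hba-a2 (4.32 CPM) and in the mean log2 CPM of the efflux list (3.86) and the immune checkpoint list (3.35). KCL-HO-1i/gemcitabine replicate 1 was highest for Ucp1 (53.2 CPM) and lowest for Ttll4 (12.4 CPM). KCL-HO-1i/gemcitabine replicate 4 was highest for Fam160b1 (30.8 CPM) and lowest for Naa30 (30.4 CPM), and replicate 5 was highest in the epidermis list (2.52).

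Among the KCL-HO-1i tumors, replicate 4 was highest for Alas1 (32.5 CPM) and Letmd1 (321 CPM), highest in the epidermis list (4.8) and the hypoxia list (6.57) and lowest in the apoptosis list (5.68). KCL-HO-1i replicate 5 was lowest for Hpcal1 (7.84 CPM). The part of single libraries in these values was not tested further.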

How the results depend on the processing

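No gene passed the adjusted threshold for adding gemcitabine under any alternative run, among them other scaling, filters and tools, the block, the mouse code and each library left out in turn. The count at an unadjusted p under 0.05, 364 as reported, was 1139 with limma-voom, 595 without the filter, 758 with the mouse code, 230 without the 3 libraries that stood apart (chosen after seeing the data) and 229 to 709 with 1 library left out, lowest without KCL-HO-1i/gemcitabine replicate 3 and highest without replicate 2. Same-numbered libraries did not deviate together (mean correlation -0.148 over 5 pairs), and with the replicate number as a block the count was 271, with 0 past the adjusted threshold. Gemcitabine against vehicle gave 1 gene with the mouse code and 0 to 3 with 1 library left out (1 without vehicle replicate 3, 3 without gemcitabine replicate 5). KCL-HO-1i/gemcitabine against KCL-HO-1i/5-FU gave 216 with DESeq2, 233 with limma-voom and 0 to 19 with 1 library left out (19 without KCL-HO-1i/5-FU replicate 3). The interaction stayed at 0. The mouse code fit left 12 residual degrees of freedom, and 2 codes were shared by the groups.

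With the mouse code the list medians of S phase, mitosis, T and NK cell, LYVE-1 macrophage, basal epithelium and activation genes changed sign, to 0.11, 0.12, -0.10, 0.12, 0.35 and -0.059. The apoptosis median changed sign with the mouse code as well, to -0.096. Other medians moved with the mouse code to -0.70 for luminal epithelium, 0.91 for hypoxia and -0.40 for immediate early genes. The epidermis median, -1.42, was 0.10 with limma-voom and 0.52 without the 3 libraries, and -2.44 to 0.11 with 1 library left out. The ER stress median was -0.0076 with limma-voom and -0.12 to 0.062 with 1 library left out, and the muscle median -3.38 to 2.40. The cause was not tested.

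Of the named genes 62 of 76 kept their sign throughout and none was called. The 12 in each direction taken for non-overlap could hardly turn with a library left out. Others were picked for the smallest p of their list in this comparison. The number of kept signs therefore follows in part from the choice of genes and does not measure stability. With the mouse code the sign turned for Ccl21a (-5.93), Cd8a (-0.071), Cda (-0.098), Gzmb (-0.13), Slc29a1 (-0.0065), Mki67 (0.096) and Top2a (0.15). With the block it turned for Cda (-0.037), Cxcl12 (-0.045), Cxcl14 (-0.080) and Gzmb (-0.030), and with limma-voom for Cxcl14 (-0.11), Gzmb (-0.042) and Mdm2 (-0.0042). With only the groups compared Cxcl14 was -0.0023. Without the 3 libraries it turned for Cda (-0.21), Cxcl14 (-0.54), Hmox1 (-0.072), Mdm2 (-0.057), Mrc1 (-0.11), Tagln (-0.018) and Ucp1 (0.93). With 1 library left out the values ran from -0.14 to 0.21 for Cda, from -0.82 to 0.76 for Cxcl12, from -0.44 to 0.32 for Cxcl14, from -0.30 to 0.54 for Gzmb, from -0.045 to 0.78 for Hmox1, from -0.061 to 0.10 for Mdm2, from -0.86 to 0.52 for Mrc1 and from -11.27 to 0.18 for Ucp1. The T cell genes and Alas2 rest on few reads.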

Other observations

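Of the genes at an unadjusted p under 0.05 with gemcitabine both over KCL-HO-1i and over vehicle, the 13 lower in both were Fam160b1, Exoc8, Crebzf, Atg4c, Zbtb7a, Ppp1r15b, Plekhh1, Ccdc6, Kmt2b, Mpp7, Arid4b, Cramp1l and Rest. The 3 higher in both were Abat, Rnf187 and Eef1d, and Rfx2 had opposite signs. They were picked for these p-values, and none passed the adjusted threshold in either comparison. Their number was little above what the shares over all genes would give.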
